A study of Mus musculus with 12 samples.

Results

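The interleukin-1 (IL-1) and interleukin-18 (IL-18) receptor genes were followed in bone-marrow pro-B cells of mice that lacked 1 copy of Pax5, with or without loss of 1 copy of Cd72, and of wild-type mice. The set held 8 genes: the receptor genes Il1r2, Il1r1, Il1rl2, Il1rl1, Il18r1 and Il18rap, which stand next to each other on chromosome 1, Il1rap on chromosome 16, and the cytokine gene Il18 on chromosome 9. A gene was represented by the transcript cluster (the array's unit of measurement, a group of probes along 1 transcript) with the highest mean. Of 19938 genes that the array annotation names by 1 symbol, 6 were among the 8, with 1 cluster for each, and Il1r1 and Il1rl1 were not analysed here. The members were chosen by their levels in the 3 genotypes, with the 9.92-fold higher signal of Il18r1 in Pax5+/- than in WT among the values in view. All differences of the 6 genes are therefore given as a description, with standard errors and no p-values, and support nothing beyond themselves.

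The arrays formed 3 groups of 4. Cd72+/-;Pax5+/- mice, the double heterozygotes, lacked 1 copy of each gene, Pax5+/- mice lacked 1 copy of Pax5 alone, and WT mice were wild type. All mice were 1 month old and kept free of specific pathogens, and purified bone-marrow pro-B cells were the stated source of every array. The labels call the cells of both mutant groups preleukemic and those of WT pro-B cells. They give neither strain nor sex, and do not say which part of Pax5 or Cd72 was removed or whether an array stands for 1 mouse or for a pool. It is not stated that different animals stand behind the 4 arrays of a genotype. The p-values therefore cover the spread among the arrays at hand, part or all of which may be technical.

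IL-1 and IL-18 are inflammatory cytokines that act through paired receptor chains. One chain binds the cytokine and the other is an accessory chain, and together they recruit the adaptor Myd88, kinases of the Irak family and the ligase Traf6, which switch on NF-kB and stress kinases. Il18r1 encodes the chain that binds IL-18 and Il18rap its accessory chain, a pair best known from natural killer (NK) cells and T cells. Il1r2 encodes a decoy that binds IL-1 and does not signal. Il1rap encodes the accessory chain shared by the receptors for IL-1, IL-33 and IL-36, and Il1rl2 encodes the IL-36 receptor.

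Several features of the arrays bear on every comparison below. Pro-B markers were high throughout, and the mean of 13 measured markers of 14 listed was 11.33 to 11.52 in Cd72+/-;Pax5+/-, 11.62 to 11.75 in Pax5+/- and 10.96 to 11.88 in WT (log2). Of the targeted genes, Pax5 read 11.11 to 11.31 in Cd72+/-;Pax5+/-, 10.65 to 11.21 in Pax5+/- and 11.40 to 11.72 in WT. It fell past the threshold in Pax5+/- (-0.60, SE 0.114, limma adjusted p = 0.0051), a call that ended with the closest pairs of arrays (described below) averaged, and not in the double heterozygotes (-0.36, SE 0.114, adjusted p = 0.0781). Cd72 read 7.34 to 7.67 in Cd72+/-;Pax5+/-, 10.03 to 10.27 in Pax5+/- and 8.43 to 9.39 in WT, below all other arrays in the group that lacks a copy. Relative to WT, Cd72 differed by 1.29 in Pax5+/- (SE 0.192, limma adjusted p = 0.000827) and by -1.39 in the double heterozygotes (adjusted p = 0.000492). Both calls ended with the closest pairs averaged. Between the double heterozygotes and Pax5+/- the difference was -2.67 (adjusted p = 1.41e-06). All 4 arrays of the double heterozygotes had high Xist (11.75 to 11.90, against 5.00 to 5.52 elsewhere) and low Uty (4.88 to 5.19, against 8.85 to 9.74 elsewhere), so their genotype and sex cannot be told apart. Arrays 1 and 3 and arrays 2 and 4 formed close pairs in WT, where the SD of the difference between arrays over all clusters was 0.113 and 0.123 inside the pairs and 0.261 to 0.270 between them. The pairs in Pax5+/- were the same numbers, and in Cd72+/-;Pax5+/- they were 1 with 2 and 3 with 4. The mean of 12 stromal markers moved with the pairs, at 8.03, 7.02, 8.10 and 7.06 in Pax5+/- replicates 1 to 4 and 8.27, 7.77, 8.30 and 7.76 in WT replicates 1 to 4, and it was lowest in Cd72+/-;Pax5+/-, at 6.97, 6.83, 6.97 and 7.09. In bulk RNA a change in the number of cells of a type and a change of RNA per cell cannot be told apart.

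The promoters of the 3 genes with the widest spread of group means are shown because Il18r1 and Il18rap were both highest in Pax5+/-, while Il1r2 was lowest in Cd72+/-;Pax5+/-. Each window runs from 250 bases before to 50 bases after an annotated start, is taken from RefSeq (GRCm38.p6, plus strand) and is written 5′ to 3′. The Il18r1 window shown is the one farthest upstream of 3 in that table, at chr1:40465302-40465601. The Il18rap window is chr1:40515112-40515411 and the Il1r2 window is chr1:40085843-40086142. Capitals mark matches to the motifs searched.
Il18r1: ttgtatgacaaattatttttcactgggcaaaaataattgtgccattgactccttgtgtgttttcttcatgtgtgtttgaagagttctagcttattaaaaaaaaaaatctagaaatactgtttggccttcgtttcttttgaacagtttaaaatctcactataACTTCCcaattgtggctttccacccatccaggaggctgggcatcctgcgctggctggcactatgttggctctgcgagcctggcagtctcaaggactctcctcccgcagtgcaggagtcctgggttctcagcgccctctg
Il18rap: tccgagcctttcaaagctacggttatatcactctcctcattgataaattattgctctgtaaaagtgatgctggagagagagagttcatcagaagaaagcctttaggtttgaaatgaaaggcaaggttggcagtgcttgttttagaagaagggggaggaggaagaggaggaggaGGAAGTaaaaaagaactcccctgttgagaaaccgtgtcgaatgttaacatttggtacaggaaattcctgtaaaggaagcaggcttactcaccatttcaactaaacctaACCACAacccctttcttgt
Il1r2: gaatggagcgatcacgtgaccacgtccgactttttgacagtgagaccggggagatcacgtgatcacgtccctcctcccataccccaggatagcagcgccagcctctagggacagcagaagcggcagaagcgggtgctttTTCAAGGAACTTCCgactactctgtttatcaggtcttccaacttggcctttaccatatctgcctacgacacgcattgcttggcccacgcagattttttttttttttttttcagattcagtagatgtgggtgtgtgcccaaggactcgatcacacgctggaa
On both strands, 6 motifs were searched: the ETS core GGAAGT, the RUNX core TGTGGT, the E-box CAGGTG, the STAT palindrome TTCNNNGAA and a pair of NF-kB forms, GGG followed after any 2 bases by TTTCC or by TTCCC. The Il18r1 window held 1 ETS match, starting at position -89 from the start site, and the Il18rap window held 1 ETS match at -77 and 1 RUNX match at 32. Il1r2 held a STAT match at -111 that shares a base with an ETS match at -103. Among all 32851 promoter windows of the table, 23.8% held the ETS core, 16.8% the RUNX core, 20.2% the E-box, 8.3% the STAT palindrome, and 1.63% and 1.75% the NF-kB forms. No window of the 8 genes held an NF-kB form. The Il18r1 window farthest downstream, chr1:40465756-40466055, held STAT matches at -219 and -152 and an E-box at -49, and the middle one, chr1:40465371-40465670, held an ETS match at -158, an E-box at 11 and a RUNX match at 22. A match of letters is a description and does not show binding.

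Both chains of the IL-18 receptor were highest in Pax5+/- cells. Il18r1 (transcript cluster 10345807) had a log2 signal of 6.64, 6.69, 6.55 and 6.47 in Cd72+/-;Pax5+/- replicates 1 to 4. It had 9.99, 10.46, 9.95 and 10.66 in Pax5+/- replicates 1 to 4, against 7.27, 6.68, 7.19 and 6.68 in WT replicates 1 to 4. Every Pax5+/- array lay far above all 8 others, while the lowest WT arrays sat at the level of Cd72+/-;Pax5+/-. The means were 6.59 ± 0.0974 in Cd72+/-;Pax5+/-, 10.27 ± 0.351 in Pax5+/- and 6.96 ± 0.319 in WT (SD, n = 4 each). Il18r1 was thus 9.92-fold higher in Pax5+/- than in WT (log2 difference 3.31, SE 0.173) and 12.8-fold lower in Cd72+/-;Pax5+/- than in Pax5+/- (log2 difference -3.68, SE 0.173). Among 23410 tested clusters, 4 had a larger positive difference between Pax5+/- and WT, and 5 had a larger negative difference between Cd72+/-;Pax5+/- and Pax5+/-.

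Between Cd72+/-;Pax5+/- and WT the Il18r1 levels overlapped, with a log2 difference of -0.37 (SE 0.173). That value rested on which WT arrays were used: it was -0.09 without WT replicates 1 and 3 and -0.64 without WT replicates 2 and 4, both chosen after seeing the data. Inside Pax5+/- the pairs ran the other way from WT. The mean of replicates 1 and 3 was 0.59 below that of replicates 2 and 4 in Pax5+/-, and 0.55 above it in WT. The mean of the stromal markers was higher on replicates 1 and 3 in both groups. The part of stromal content in the Il18r1 levels was not tested.

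Il18rap (cluster 10345824) read 9.22, 9.32, 9.34 and 9.35 in Cd72+/-;Pax5+/- replicates 1 to 4. It read 10.90, 10.96, 11.00 and 10.90 in Pax5+/- replicates 1 to 4, against 9.76, 8.91, 9.67 and 8.95 in WT replicates 1 to 4. The Pax5+/- arrays were tightly grouped above all others, and the WT arrays fell on both sides of Cd72+/-;Pax5+/-. Il18rap was 3.07-fold higher in Pax5+/- (10.94 ± 0.049) than in WT (9.32 ± 0.455; log2 difference 1.62, SE 0.165), and 3.1-fold lower in Cd72+/-;Pax5+/- (9.31 ± 0.0597) than in Pax5+/- (log2 difference -1.63, SE 0.165). On the log2 scale both differences were smaller than those of Il18r1, although the test of one gene against the other was not made. Cd72+/-;Pax5+/- and WT differed by -0.01 (SE 0.165), which became 0.38 without WT replicates 1 and 3 and -0.41 without WT replicates 2 and 4, so this difference has no settled direction. The difference between Pax5+/- and WT was 2.01 and 1.23 under the same omissions.

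The cytokine of this receptor did not follow its chains. Il18 (cluster 10585194) read 5.14 to 5.37 in Cd72+/-;Pax5+/-, 5.19 to 5.49 in Pax5+/- and 5.15 to 5.60 in WT, so all groups overlapped. Its log2 difference was -0.04 in Pax5+/- against WT, -0.10 in Cd72+/-;Pax5+/- against WT and -0.06 in Cd72+/-;Pax5+/- against Pax5+/- (SE 0.0999 in each). Il18 and Il1rl2 did not pass a filter on dim clusters, a group mean above 7.14 in at least 1 group, and the other 4 measured genes passed it.

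**Figure D1:**
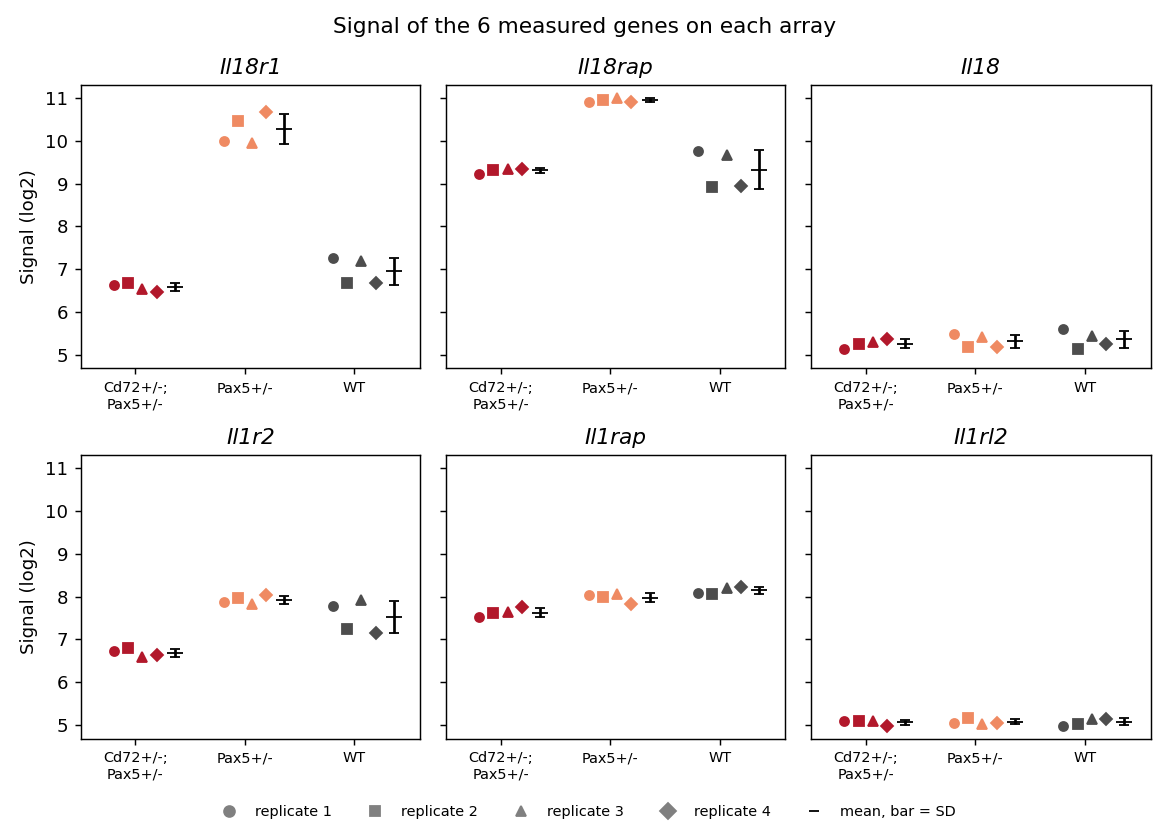
Signal (log2, vertical axis, shared by all panels) of the 6 measured genes on each of the 12 arrays, by group, with a marker shape for each replicate and a black bar for the mean ± SD. The Pax5+/- arrays of Il18r1 lie between 9.95 and 10.66, above all others, and the WT replicates 1 and 3 of Il18r1, Il18rap and Il1r2 lie above WT replicates 2 and 4.

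The IL-1 decoy receptor was lowest in cells that lacked 1 copy of both genes. Il1r2 (cluster 10345752) read 6.72, 6.79, 6.60 and 6.63 in Cd72+/-;Pax5+/- replicates 1 to 4 and 7.88, 7.97, 7.82 and 8.03 in Pax5+/- replicates 1 to 4. In WT it read 7.79, 7.24, 7.91 and 7.16. The Cd72+/-;Pax5+/- arrays lay below all others, and the Pax5+/- and WT arrays overlapped through WT replicate 3. Il1r2 was 2.36-fold lower in Cd72+/-;Pax5+/- (6.68 ± 0.0866) than in Pax5+/- (7.93 ± 0.0933; log2 difference -1.24, SE 0.144, n = 4 each). Against WT (7.53 ± 0.38) it was 1.79-fold lower in Cd72+/-;Pax5+/- (-0.84, SE 0.144). Without WT replicates 1 and 3 that value was -0.52, and without WT replicates 2 and 4 it was -1.17. The difference of 0.40 (SE 0.144) in Pax5+/- against WT was 0.73 and 0.08 under these omissions.

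The shared accessory chain differed by less. Il1rap (cluster 10434845) read 7.52, 7.61, 7.63 and 7.75 in Cd72+/-;Pax5+/- replicates 1 to 4 and 8.03, 7.98, 8.06 and 7.83 in Pax5+/- replicates 1 to 4. In WT it read 8.09, 8.06, 8.20 and 8.22. The Cd72+/-;Pax5+/- arrays lay below those of both other groups, which met each other at 8.06. Il1rap was 1.43-fold lower in Cd72+/-;Pax5+/- (7.63 ± 0.0946) than in WT (8.14 ± 0.0793), with a log2 difference of -0.52 (SE 0.0655). Against Pax5+/- (7.97 ± 0.102) it was 1.27-fold lower (-0.35, SE 0.0655). The WT pairs did not divide this gene: both averaged 8.14, and the difference from WT was -0.51 and -0.52 without either pair.

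The IL-36 receptor gene was dim and read about the same in the 3 groups. Il1rl2 (cluster 10345777) read 4.99 to 5.10 in Cd72+/-;Pax5+/-, 5.03 to 5.16 in Pax5+/- and 4.99 to 5.15 in WT. Each of its 3 log2 differences was -0.01 (SE 0.0522). It stands between Il1r1 and Il1rl1 in the row of receptor genes.

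In the fit over all clusters, 2 of the 6 genes passed an adjusted p of 0.05 in Pax5+/- against WT, both higher, where 7.47% of clusters passed and 4.28% passed as higher. For Cd72+/-;Pax5+/- against WT 2 of 6 passed, Il1r2 and Il1rap, both lower, where 7.78% of clusters passed and 3.66% passed as lower. For Cd72+/-;Pax5+/- against Pax5+/- 4 of 6 passed, all lower, where 9.79% of clusters passed and 5.35% passed as lower. The same 2, 2 and 4 genes had groups that did not overlap, as did 10.7%, 14.8% and 18.5% of all clusters. With the closest pairs of arrays averaged, 1, 0 and 1 of the 6 passed, the 1 being Il18r1 each time. Nothing is read from these counts, since the genes were chosen on the same comparisons. The comparisons with WT share the WT arrays.

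The genes on either side of the receptor genes were read on the same arrays. Of the 10 protein-coding genes nearest on each side, 17 of 20 were measured, and in Pax5+/- against WT 1 rose and 16 did not pass. In double heterozygotes against WT 2 fell, and in double heterozygotes against Pax5+/- 2 fell. These are 5.88%, 11.8% and 11.8% of the measured neighbours, near the 7.47%, 7.78% and 9.79% of all clusters that passed. The median log2 difference of the neighbours was -0.02, -0.03 and -0.02, against -0.01, 0.00 and 0.01 over all clusters. Slc9a4, the gene next to Il18rap, and Map4k4, the gene next to Il1r2, did not pass in any of the 3. Between Pax5+/- and WT, Slc9a4 differed by -0.09 (SE 0.0646, limma adjusted p = 0.554), and Map4k4 averaged 10.56 in Pax5+/- and 10.57 in WT (limma adjusted p = 0.982).

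Slc9a2, a sodium-proton exchanger gene that follows Slc9a4, was the neighbour with the smallest p in each comparison. It read 6.29, 6.32, 6.22 and 6.25 in double-heterozygote replicates 1 to 4, 7.09, 7.16, 7.08 and 7.13 in Pax5+/- replicates 1 to 4, and 6.84, 6.78, 6.73 and 6.86 in WT replicates 1 to 4. No group overlapped another. Slc9a2 rose in Pax5+/- cells by 0.31 relative to WT (SE 0.0446, adjusted p = 0.000586), a call that ended with the closest pairs averaged. Double heterozygotes had less of it: it fell by 0.53 against WT (adjusted p = 7.06e-06) and by 0.85 against Pax5+/- (adjusted p = 8.38e-08), and both calls held under every alternative that tested the gene. Slc9a2 does not pass the filter on dim clusters and was not tested under it. Relative to WT, Fhl2, a LIM-domain protein gene, also fell by 0.42 in the double heterozygotes (limma adjusted p = 0.03). Relative to Pax5+/-, Mfsd9 fell by 0.24 there (adjusted p = 0.0401). Mfsd9 does not pass the filter on dim clusters either. The Fhl2 call ended without WT replicate 1 or 3 or any 1 of the double-heterozygote arrays. The Mfsd9 call ended without Pax5+/- replicate 2, 3 or 4 and without double-heterozygote replicate 1, 3 or 4. The count of neighbours called was then 1, except without Pax5+/- replicate 2, where another neighbour passed. In Pax5+/- against WT it was 2 without Pax5+/- replicate 1 or WT replicate 1.

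**Figure D2:**
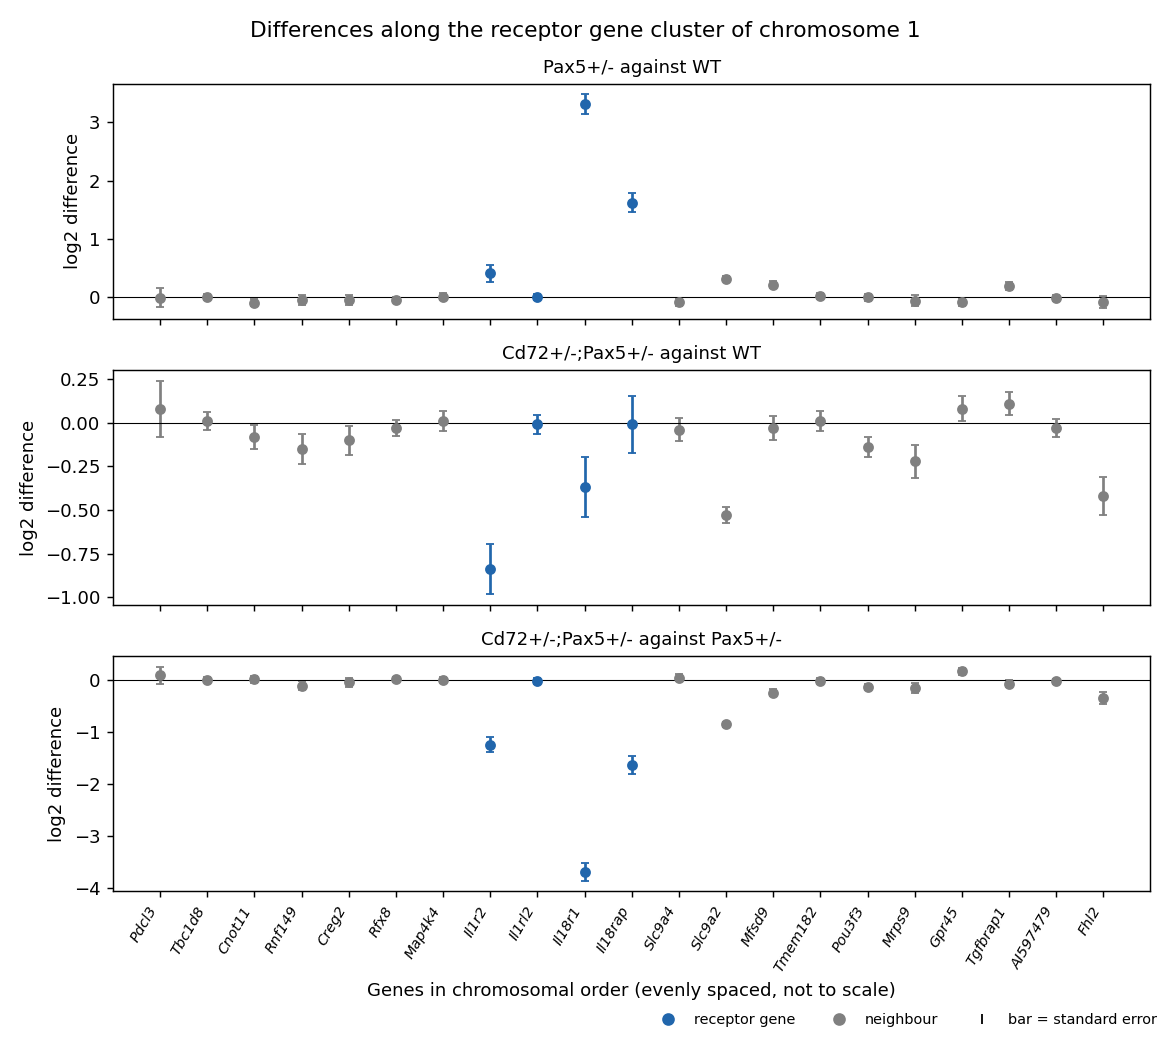
Log2 difference (vertical axis, a scale of its own in each panel; bars are standard errors) of the measured genes in their order on chromosome 1, evenly spaced, for the 3 comparisons. Receptor genes are blue and neighbours grey; Il18r1 stands at 3.31 and Il18rap at 1.62 in Pax5+/- against WT, with Slc9a4 beside them at -0.09 and Slc9a2 at 0.31.

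Beyond the receptor genes, 58 of 65 listed symbols of the pathway were measured, and 4 of the 65 were later symbols of genes listed also under older ones. The lists were chosen with earlier results of these data known, so the counts are a description. In Pax5+/- against WT 4 of the 58 rose and none fell (6.9% called), in double heterozygotes against WT 6 rose and 4 fell (17.2%), and in double heterozygotes against Pax5+/- 3 rose and 3 fell (10.3%). Over all clusters the shares called were 7.47%, 7.78% and 9.79%. The median log2 difference was -0.01, 0.00 and 0.01, the same as over all clusters, and the median size was 0.08, 0.08 and 0.10 against 0.07, 0.07 and 0.08. With the closest pairs averaged 1, 4 and 3 of these calls held. Without WT replicate 4 the count in Pax5+/- against WT was 2, and in double heterozygotes against WT it was 6 without WT replicate 4 and 5 without double-heterozygote replicate 3 or 4.

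Among 11 measured ligands, antagonists and processing enzymes of 15 listed symbols, Il33 fell in double heterozygotes. Il33 encodes the cytokine that binds the Il1rl1 chain together with Il1rap. It read 7.06, 6.99, 7.17 and 7.18 in double-heterozygote replicates 1 to 4, 8.27, 8.35, 8.15 and 8.35 in Pax5+/- replicates 1 to 4, and 8.03, 8.02, 8.19 and 8.17 in WT replicates 1 to 4. The double-heterozygote arrays lay about 1 log2 unit below the other groups. It fell by 1.00 against WT (SE 0.0652, limma adjusted p = 7.59e-07) and by 1.18 against Pax5+/- (adjusted p = 1.26e-07), and both calls held under every alternative run. The mean of the stromal markers was lowest in the same group. It was 6.83 to 7.09 in double heterozygotes, 7.02 to 8.10 in Pax5+/- and 7.76 to 8.30 in WT. The part of stromal content in the Il33 difference was not tested. Against WT Il33 fell by 0.99 without WT replicates 1 and 3. Between Pax5+/- and WT it differed by 0.18, short of the threshold (adjusted p = 0.147).

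Casp1, the protease that cuts the precursors of IL-1 beta and IL-18 into their active forms, rose in both mutant groups against WT. It read 6.00, 5.88, 6.13 and 6.43 in double-heterozygote replicates 1 to 4, 6.72, 5.64, 6.13 and 5.92 in Pax5+/- replicates 1 to 4, and 5.47, 5.45, 5.39 and 5.13 in WT replicates 1 to 4. Every mutant array was above every WT array. The rise was 0.75 in double heterozygotes (SE 0.191, limma adjusted p = 0.0309) and 0.74 in Pax5+/- (adjusted p = 0.0326). Both calls were close to the threshold and ended with the closest pairs averaged or as a random block. Casp1 does not pass the filter on dim clusters and was not tested under it. The call in double heterozygotes also ended without WT replicate 1, 3 or 4 or double-heterozygote replicate 1, 3 or 4, and the call in Pax5+/- without WT replicate 2, 3 or 4, Pax5+/- replicate 3 or double-heterozygote replicate 3. The genes of IL-1 itself were dim, below the 7.14 of the filter on dim clusters, and read about the same in each group. As means of double heterozygotes, Pax5+/- and WT, Il1a read 4.68, 4.72 and 4.68, and Il1b 5.48, 5.53 and 5.51. Il18bp, the soluble inhibitor of IL-18, averaged 7.87, 7.72 and 7.80, and Il1rn, the IL-1 receptor antagonist, averaged 6.86, 7.29 and 7.42. Neither passed in any comparison (limma adjusted p of 0.084 to 0.502 for Il18bp and 0.0919 to 0.816 for Il1rn). Il1a and Il1b were named after their values were seen.

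Of the 3 other receptor genes of the family, Sigirr, which encodes a receptor that dampens IL-1 and Toll-like receptor signals, fell by 0.60 in double heterozygotes against Pax5+/- (SE 0.117, limma adjusted p = 0.00508). It read 8.30, 8.39, 8.25 and 8.49 in double-heterozygote replicates 1 to 4 and 8.93, 9.04, 8.86 and 9.01 in Pax5+/- replicates 1 to 4. In WT it read 8.87, 8.36, 8.82 and 8.32. The WT arrays were again divided, with replicates 1 and 3 near Pax5+/- and replicates 2 and 4 near double heterozygotes. The call ended with the closest pairs averaged. Il1rapl1 and Il1rapl2, which are best known from neurons, averaged 4.47 to 4.86 in the 3 groups and did not pass.

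Of 24 measured signalling proteins of 27 listed, 2 passed in Pax5+/- against WT, 2 in double heterozygotes against WT and 1 in double heterozygotes against Pax5+/-, where 7.47%, 7.78% and 9.79% of all clusters passed. Relative to WT, Pax5+/- cells had more Mapk8 (JNK1), a stress kinase, which rose by 0.28 (SE 0.0559, limma adjusted p = 0.00732), and more Map2k6, a kinase upstream of p38, which rose by 0.40 (SE 0.093, adjusted p = 0.0177). Relative to Pax5+/-, Mapk8 fell by 0.26 in double heterozygotes (adjusted p = 0.00855). Relative to WT, the adaptor Myd88 fell by 0.35 in double heterozygotes (adjusted p = 0.0308) and Irak3, an inhibitory member of the Irak family, rose by 0.26 (adjusted p = 0.0389). All of these calls ended with the closest pairs averaged. The Map2k6 call also ended without WT replicate 2 or 4. The Myd88 call ended without WT replicate 1, 2 or 4 or double-heterozygote replicate 2, 3 or 4, and the Irak3 call without WT replicate 2, 3 or 4 or any 1 of the double-heterozygote arrays. Both also ended with the closest pairs as a random block. The Myd88 call ended after a shift to a common median and with only the compared groups. The Irak3 call ended after quantile normalization and under another prior. Tab2 and Ube2v1, which act beside Traf6, averaged 10.60 to 10.83 and did not pass.

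Among 20 genes that these cytokines are known to induce, the chemokines Ccl3, Ccl4 and Ccl5 stood out. The part of the receptors in their levels was not tested, and the list was chosen with earlier results of these data known. Ccl3 read 9.95 to 10.01 in double heterozygotes, 9.36 to 9.67 in Pax5+/- and 6.19 to 7.24 in WT. It was high in both mutant groups, with rises of 3.25 in double heterozygotes (SE 0.191, limma adjusted p = 3.18e-07) and 2.83 in Pax5+/- against WT (adjusted p = 9.19e-07). Ccl4 read 6.79 to 7.00 in double heterozygotes, 6.07 to 6.34 in Pax5+/- and 6.02 to 6.17 in WT. Ccl5 read 7.68 to 7.96 in double heterozygotes, 6.98 to 7.13 in Pax5+/- and 7.09 to 7.13 in WT. Both were highest in double heterozygotes. There, Ccl4 rose by 0.70 (limma adjusted p = 1.76e-05) and Ccl5 by 0.75 (adjusted p = 5.44e-06) relative to Pax5+/-. Against WT, Ccl4 rose by 0.78 (adjusted p = 9.22e-06) and Ccl5 by 0.69 (adjusted p = 1.28e-05) in double heterozygotes, while in Pax5+/- cells neither did so (0.08, adjusted p = 0.632, and -0.06, adjusted p = 0.75). These calls of Ccl3, Ccl4 and Ccl5 against WT held under every alternative that tested the gene, and Ccl4 does not pass the filter on dim clusters and was not tested under it.

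The other called genes of that list changed by less. Relative to WT, in double heterozygotes the RNase gene Zc3h12a fell by 0.34 (limma adjusted p = 0.0143), Gadd45b, a stress-response gene, fell by 0.31 (adjusted p = 0.0248) and Ptgs2, the inducible cyclooxygenase, rose by 0.21 (adjusted p = 0.0444). Nfkbiz, an NF-kB cofactor, rose by 0.22 there relative to Pax5+/- (adjusted p = 0.0285). These 4 calls ended with the closest pairs averaged. Ptgs2 does not pass the filter on dim clusters and was not tested under it. The Ptgs2 call ended in 9 of the 12 omissions of 1 array, and the Gadd45b call without WT replicate 1 or 3 or double-heterozygote replicate 3 or 4. The Nfkbiz call ended without Pax5+/- replicate 1 or double-heterozygote replicate 2, 3 or 4. Nfkbia, the NF-kB inhibitor, averaged 9.61, 9.73 and 9.46 in double heterozygotes, Pax5+/- and WT and did not pass. Tnf averaged 10.35 ± 0.0698, 9.47 ± 0.196 and 10.05 ± 0.861 in the same order and did not pass, with a wide spread among the WT arrays.

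**Figure D3:**
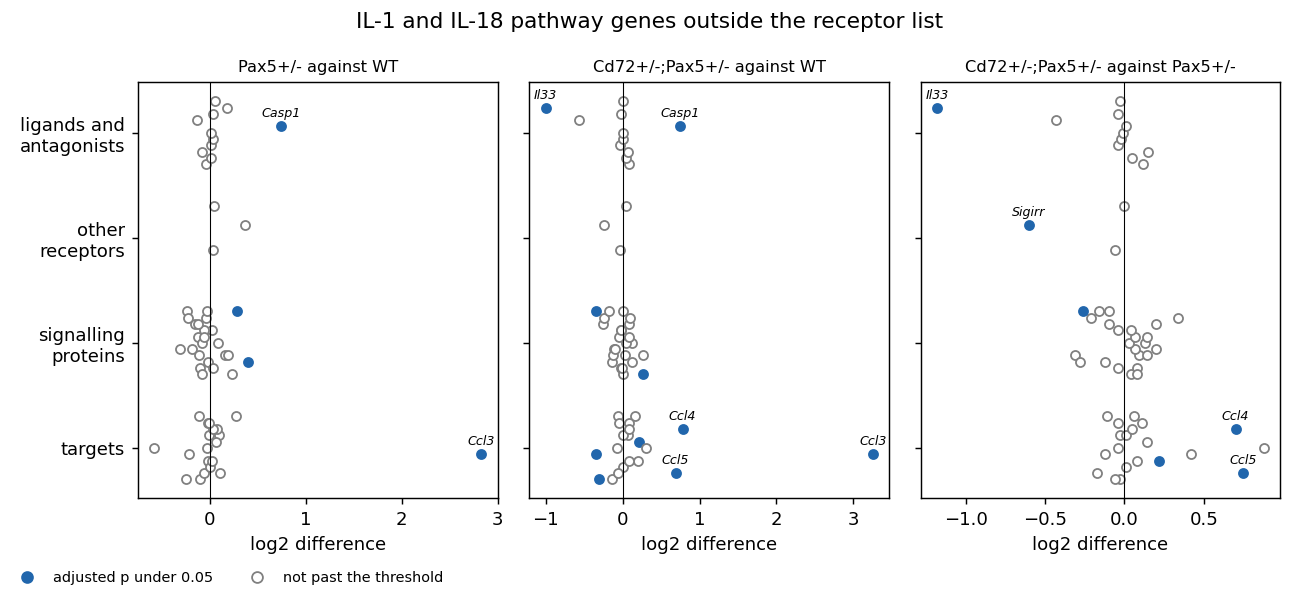
Log2 difference (horizontal axis, a scale of its own in each panel) of the 58 measured pathway genes outside the receptor list, by role, for the 3 comparisons. Filled points passed an adjusted p of 0.05 and carry a name where the difference was over 0.5 in size; Ccl3 lies at 2.83 and 3.25 against WT, and Il33 at -1.18 in Cd72+/-;Pax5+/- against Pax5+/-.

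Other cell types of the marrow and blood carry these receptors, and their markers were read on the same arrays. Over all clusters, 7.47% passed in Pax5+/- against WT, 7.78% in double heterozygotes against WT and 9.79% in double heterozygotes against Pax5+/-. Of 12 NK and innate lymphoid markers Nkg7, a granule protein gene, rose in Pax5+/- by 0.54 relative to WT (limma adjusted p = 0.0249), a call that ended without replicate 2 or 4 of either group. Relative to Pax5+/-, Nkg7 fell by 0.69 in double heterozygotes (adjusted p = 0.00433). The other 11 did not pass. The mean of the 12 was 5.52 to 5.55 in double heterozygotes, 5.54 to 5.63 in Pax5+/- and 5.44 to 5.68 in WT. These means lie below 7.14, the cut of the filter on dim clusters, which Nkg7 itself does not pass. Of 12 T-cell markers Lat fell in Pax5+/- by 0.68 relative to WT (limma adjusted p = 3.43e-05), and the mean of the 12 was 6.34 to 6.47, 6.38 to 6.44 and 6.43 to 6.48 in double heterozygotes, Pax5+/- and WT. Relative to Pax5+/-, Lat rose and Zap70 and Cd5 fell in double heterozygotes, the Zap70 call at an adjusted p of 0.0484. Among 8 measured markers of group 2 innate lymphoid cells, which carry the IL-33 receptor, Il2ra alone passed, lower in double heterozygotes against both other groups. Il2ra averaged 11.10, 11.72 and 11.66 in double heterozygotes, Pax5+/- and WT. The mean of the 8 was far lower, at 6.60 to 6.69, 6.63 to 6.73 and 6.70 to 6.75 in the same order. Which cells gave the Il2ra signal was not tested.

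Markers of mast cells, basophils and eosinophils (10) and of neutrophils (10), cells known for the IL-33 receptor and for Il1r2, gave 0 calls in limma in all 3 comparisons, and 0 had an unadjusted p under 0.05. Their means were 5.68 to 5.78 and 5.77 to 5.83 in double heterozygotes, 5.71 to 5.77 and 5.72 to 5.83 in Pax5+/-, and 5.72 to 5.77 and 5.76 to 5.82 in WT. Of 12 stromal markers, 4 fell in double heterozygotes against WT: Alpl, Cxcl12, Sparc and Bgn. Of all clusters, 3.66% passed as lower there. Across the WT pairs Alpl ran the other way from Cxcl12, Sparc and Bgn. In WT replicates 1 to 4 Alpl read 10.76, 11.34, 10.85 and 11.42, and Sparc read 10.71, 9.44, 10.63 and 9.40. The Sparc and Bgn calls ended without WT replicate 1 or 3 or any 1 of the double-heterozygote arrays. Relative to Pax5+/-, Cxcl12 fell and Alpl rose in double heterozygotes, and Alpl fell in Pax5+/- relative to WT. Of 9 measured monocyte and macrophage markers Cd68 rose and Ccr2 fell in double heterozygotes against both other groups, and Eng fell in both mutant groups against WT among 7 endothelial markers. Of all clusters, 7.47% passed in Pax5+/- against WT, 7.78% in double heterozygotes against WT and 9.79% in double heterozygotes against Pax5+/-. Of 6 measured plasmacytoid dendritic cell markers Cox6a2 and Ccr9 rose and Bst2 and Spib fell in Pax5+/- against WT. Cox6a2 also rose in double heterozygotes against WT, and Bst2 and Spib rose and Ccr9 fell there against Pax5+/-. Of 13 measured pro-B markers Ebf1 and Cd93 rose and Cd79a fell in Pax5+/- against WT, Ebf1 rose and Dntt fell in double heterozygotes against WT, and Cd79a rose and Dntt and Cd93 fell there against Pax5+/-. None of these pro-B marker calls held with the closest pairs averaged. The 4 measured megakaryocyte and 4 measured erythroid markers gave 0 calls, with 0 and up to 2 at an unadjusted p under 0.05. With the closest pairs averaged, the calls of Lat, Ccr2, Eng and Alpl, and of Bst2 against Pax5+/-, held among the markers of other cells. Calls against Pax5+/- also ended for Cxcl12 without Pax5+/- replicate 1 or 3 or any 1 of the double-heterozygote arrays, and for Cd5 without replicate 4 of either group, Pax5+/- replicate 2 or double-heterozygote replicate 3. The calls of Zap70 and of Ccr9 in Pax5+/- ended without any 1 of the Pax5+/- arrays and without several others. Neither gene passes the filter on dim clusters. The part of any of these cells in the receptor differences was not tested.

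The genes whose levels lay nearest to those of Il18r1 over the 12 arrays were sought among 19932 named genes, as the smallest root mean square distance after each gene was centred on its own mean. They were Pgr, the progesterone receptor, at 0.249 log2 units, Adgre5, an adhesion receptor of leukocytes, at 0.309, Frmd4b at 0.376, Hmces, a DNA repair protein, at 0.394 and Bmpr1a, a bone morphogenetic protein receptor, at 0.455. Pgr read 5.91 to 6.13 in double heterozygotes and 9.36, 9.71, 9.31 and 9.64 in Pax5+/- replicates 1 to 4, against 6.13, 6.04, 5.85 and 5.96 in WT replicates 1 to 4. Adgre5 read 5.52 to 5.65 in double heterozygotes and 8.48, 8.90, 8.27 and 8.78 in Pax5+/- replicates 1 to 4, against 5.99, 5.64, 5.87 and 5.76 in WT replicates 1 to 4. Within Pax5+/-, Pgr and Adgre5 were lower on replicates 1 and 3 than on replicates 2 and 4, as Il18r1 was, while Bmpr1a was higher on them, at 8.54, 8.07, 8.23 and 7.73 in replicates 1 to 4. These genes were found by their likeness in the same values, so their differences are given without a test.

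**Figure D4:**
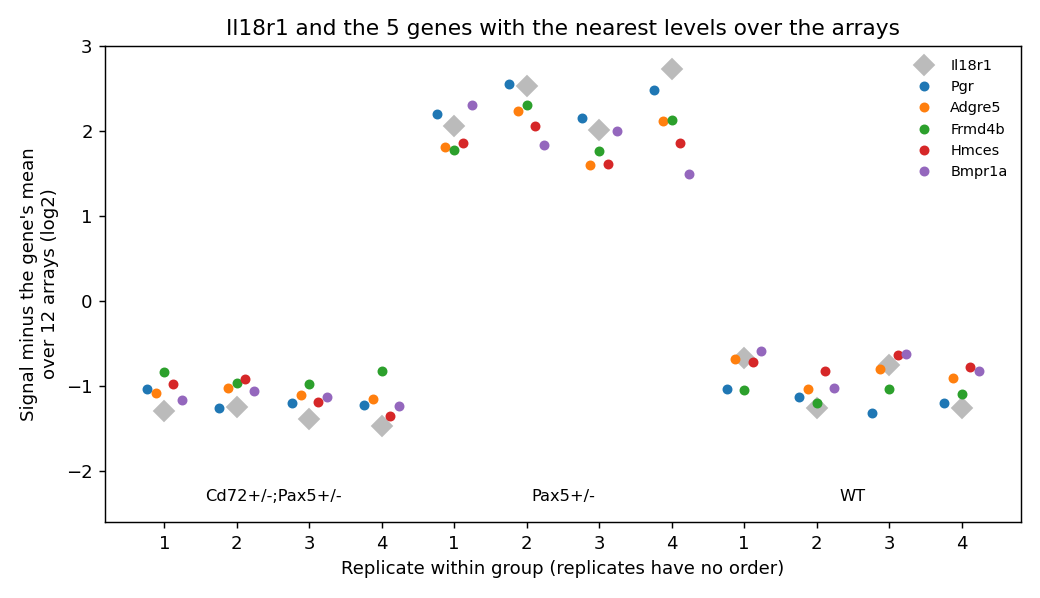
Signal minus the gene's own mean over the 12 arrays (log2, vertical axis) of Il18r1 (grey diamonds) and the 5 genes nearest to it (coloured points), for each replicate of the 3 groups. All 6 genes are high on the 4 Pax5+/- arrays and low on the other 8; the distances to Il18r1 run between 0.249 for Pgr and 0.455 for Bmpr1a.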

How the data were processed

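The authors deposited log2 signal values for each transcript cluster of Affymetrix mouse arrays, with values of 3.67 to 14.73 and array medians of 6.91 to 7.005. They used Transcriptome Analysis Console 4.0.3, per the labels. No source used here gives the background correction, the normalization or the build. Of 28944 clusters, the 23410 with a gene symbol (1621 with several) were fitted with limma 3.58.1 in R 4.3.3, with a mean per group over all 12 arrays and empirical Bayes moderation (9 residual and 3.28 prior degrees of freedom). A cluster was called where its p, adjusted over all of them by Benjamini and Hochberg, was under 0.05, and every adjusted p in the text comes from this fit. The pipeline was tested on simulated data with noise drawn independently for each array, which leaves out the close pairs of arrays. Figures used Python 3.11.15 and matplotlib 3.10.9.

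Members, pathway and marker lists, motifs and alternatives were chosen with earlier results of these data known. Named were all members, Pax5, Cd72, Xist and Uty; up to 6 called genes per list and comparison with the smallest p and up to 2 bright genes not called; called markers, up to 4 a list; and the 5 genes nearest to Il18r1. Neighbours were ordered by the RefSeq table of GRCm38.p6, matched by Entrez identifier. Alternatives were other normalizations, filters, priors and thresholds, the closest pairs averaged or as a random block, and omission of arrays. The number of arrays limits the precision.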

Additional observations from a re-analysis of the deposited data

Results flagged for a closer look

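In 186 groups of 4 arrays, over the measured members and the other named genes, 8 held an array far from the other 3 by Dixon's ratio. Chance alone marks about 1 such group in 20. Among the receptor genes this was Il1rl2 on Cd72+/-;Pax5+/- replicate 4, at 4.99. Among pathway genes it was Il18bp on Cd72+/-;Pax5+/- replicate 3 at 7.82, Il1rapl1 on WT replicate 3 at 4.68, Myd88 on Cd72+/-;Pax5+/- replicate 1 at 9.24 and Nfkbiz on Pax5+/- replicate 1 at 7.57. Among markers it was Cd68 on WT replicate 1 at 7.58, Bst2 on Pax5+/- replicate 2 at 7.66 and Alpl on Cd72+/-;Pax5+/- replicate 1 at 9.06.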

How the results depend on the processing

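Among the alternatives run, leaving out a close pair of WT arrays moved the differences of Il18r1, Il18rap, Il1r2 and Il18 from WT furthest. The difference of Il18 in Pax5+/- from WT was then 0.12 without WT arrays 1 and 3 and -0.20 without WT arrays 2 and 4, and Il18rap turned sign likewise in Cd72+/-;Pax5+/-, at 0.38 and -0.41. No paired analysis was possible because no sample number in the titles occurs in more than 1 group. Each of the 6 measured members had 1 cluster, so averaging a gene's clusters changed nothing for them and was not run. Ube2v1 had 3 clusters, and the one with the highest mean was read. The counts below are given first for Pax5+/- over WT, next for Cd72+/-;Pax5+/- over WT and last for Cd72+/-;Pax5+/- over Pax5+/-, and 1749, 1821 and 2292 clusters were called. With the closest pairs averaged 282, 290 and 420 were, on fewer units by construction, and as a random block 1133, 1031 and 1398. Without WT arrays 1 and 3, 4184 were called in the first, and without WT arrays 2 and 4, 3645 in the second; both settings, added after seeing the data, leave 1 close pair as WT. Pathway genes called numbered 4, 10 and 6. They were 1, 4 and 3 with the closest pairs averaged, 4 in the second as a random block, 8 and 10 in the first and last at an adjusted p under 0.1, 11 in the last with only the compared groups, 15 in the first without WT arrays 1 and 3, and 16 in the second without WT arrays 2 and 4. Omitting 1 array gave 2 to 6, 5 to 12 and 5 to 7. Neighbours called numbered 1, 2 and 2. They were 0, 1 and 1 with the closest pairs averaged, 1 in the second and last as a random block, 0, 1 and 0 of 9 neighbours after the filter on dim clusters, 1 in the last after a shift to a common median, and 2 in the first at an adjusted p under 0.1 and without WT arrays 1 and 3. Omitting 1 array gave 1 to 2 in each. Without WT arrays 1 and 3, Tnf turned to -0.44 in Cd72+/-;Pax5+/- against WT and Dntt to 0.85 in Pax5+/- against WT. Where no construction is named, the cause was not tested.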
